A study of Mus musculus with 3 samples.

Results

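The subject here is the crowded regions of a list of Nrf2 ChIP-seq regions from mouse embryonic fibroblasts. A region was counted as crowded when it lay within 20 kb of the previous or the next region of its chromosome, measured from end to start, or when it began before 3.1 Mb on its chromosome. Members were thus chosen by their deposited positions, and height took no part in the choice. Of the 1256 regions of the list, 267 (21.3%) met this rule, and the other 989 are called the rest of the list. Of the 267, 266 met the limit on gaps. The position limit added only the single region of chromosome Y, and another 24 regions met both limits.

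The fibroblasts were labelled as Keap1-/-, of the CD-1 strain, with a stage of 8 to 10 weeks, a label that sits oddly with embryonic cells. All 3 libraries share this genotype, so no library shows these loci in cells with Keap1. The first library was precipitated with a rabbit monoclonal antibody to the C-terminal domain of Nrf2 and the second with a rabbit polyclonal antibody to its N-terminal part. The third was a control, given as an anti-rabbit IgG precipitation in the sample label and as input DNA in the design text, and there was 1 library of each kind.

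Nrf2 is a transcription factor that pairs with small Maf proteins on antioxidant response elements and switches on genes of redox defence and detoxification, and Keap1 normally holds it at a low level by directing its degradation. Mouse chromosomes have their centromere at one end, where arrays of satellite DNA, short units repeated head to tail, adjoin the beginning of the assembled sequence. Ribosomal RNA genes and some gene families are likewise present as many near-identical copies. An aligner cannot assign a short read from a stretch that is identical between copies to its place of origin by its letters alone. How reads were placed at these loci was not tested.

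The list gave each region a start, an end, a highest position and a height at that position. The height is the authors' own value, and the sources used here give neither its unit nor any correction for the control. There was no value per library, so neither antibody nor the control can be shown at these loci, and the depth is unknown. The rule used positions only, and heights come from the same calls as those positions, so members and rest are set side by side as a description, without a test. No library was replicated, and regions of the same locus are not independent of each other. Coordinates are mm9 positions as deposited. The sequence of the regions was not analysed here, so whether a given locus is satellite or copied sequence was not tested, and the regions are named by their crowding and position.

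Joined across gaps of at most 20 kb, the 267 regions formed 75 loci. Of these, 12 loci held 5 or more regions and took in 121 regions (45.3% of the members) within 342 kb on 8 chromosomes. A further 62 loci held 2 to 4 regions: 45 of 2, 13 of 3 and 4 of 4. The last locus was the lone region of chromosome Y. Small loci, with the Y region, thus made up the larger part of the members (146 regions, 54.7%). In 46 of the 62, no region touched another.

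Crowded regions were found on 20 of the 21 chromosomes in the list. Chromosome 12 had 33 regions and no crowded one. Chromosome 1 had 75 crowded regions among its 172 (43.6%), chromosome 18 had 9 among 21 (42.9%), chromosome 8 had 23 among 69 (33.3%) and chromosome 16 had 21 among 70 (30.0%). Chromosome 10, with 122 regions in all, had only 15 crowded ones (12.3%), and none of them lay in a locus of 5 or more. Chromosome 1 alone held 56 of the 121 regions of the large loci (46.3%).

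Heights of the crowded regions centred close to those of the rest. Their median was 10.4 (quartiles 8.99 and 13.5, range 5 to 87.2), against 9.97 (quartiles 7.35 and 13.6, range 5 to 122) in the rest. Tall regions were somewhat more frequent. A height above 20 was reached by 30 members (11.2%, exact 95% interval 7.71 to 15.7%) and by 77 of the rest (7.79%, interval 6.19 to 9.63%). A height above 30 was reached by 14 members (5.24%, interval 2.90 to 8.64%) and by 26 of the rest (2.63%, interval 1.72 to 3.83%). These intervals overlap. Low regions, under a height of 9, made up 67 of the members (25.1%) and 303 of the rest (30.6%). The regions above 30 were also the 40 tallest of the list, so the 14 crowded ones among the 40 are the same 14 members. Of these 14, 9 lay in large loci and 5 in small ones. Crowded regions made up 21.3% of the whole list.

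The heights of the 12 large loci differed far more from each other than crowded regions did from the rest. The loci on chromosomes 17 and 9 had the highest medians, 27.4 and 33.2, and the locus at the start of chromosome 18 had a median of 16.0. The other 9 had medians of 8.04 to 13.3. Together, chromosomes 17, 9 and 4 held all 14 regions above a height of 20 in large loci: 8 on chromosome 17, 4 on chromosome 9 and 2 on chromosome 4. Within a locus, the tallest region exceeded the lowest by 1.84 to 3.32 times in 11 loci and by 7.98 times on chromosome 4.

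**Figure D1:**
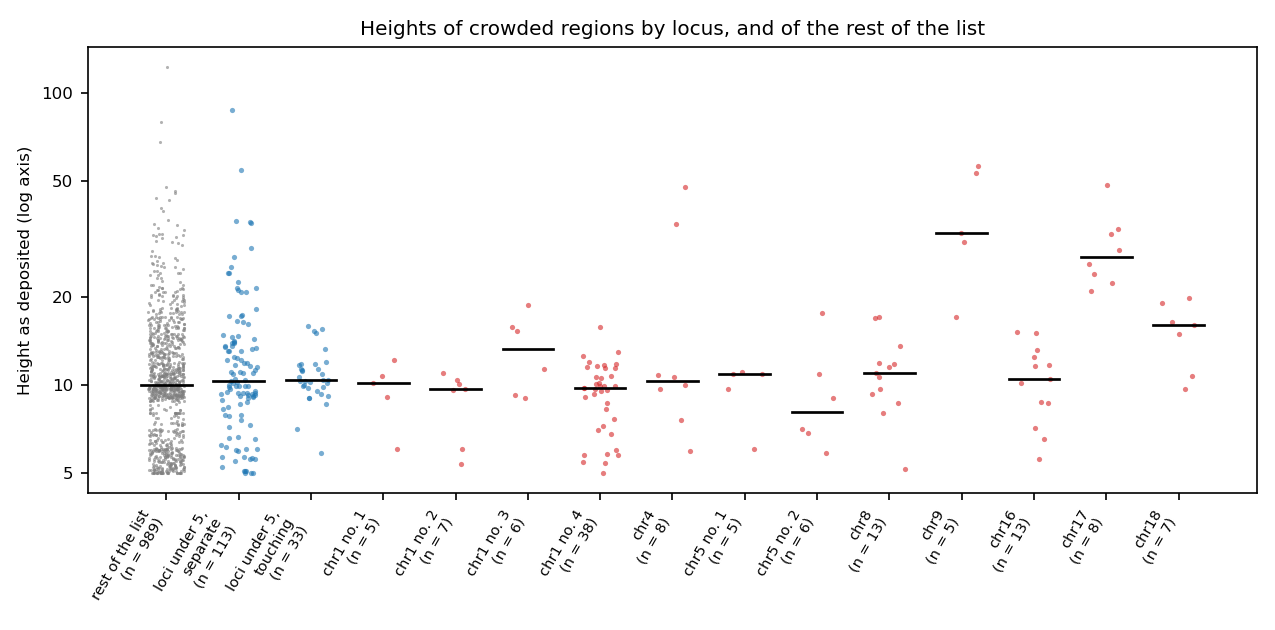
Height of each region (log axis, as deposited) in the rest of the list, in loci of fewer than 5 regions split by whether a region touches another, and in each of the 12 loci of 5 or more, with black lines at the medians. Medians of most groups sit near 10, while the loci of chromosomes 9 (33.2) and 17 (27.4) stand above the others.

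The locus of chromosome 17 lies at the place where the mm9 sequence carries a copy of the 45S ribosomal RNA precursor gene, which RNA polymerase I transcribes and which is present in long tandem arrays on several chromosomes. It ran from 39979893 to 39996380 and held 8 regions. The first 7 lay from 39979893 to 39985799, and they covered 4521 of those 5906 bp (76.5%). In order along the chromosome, the heights of the 7 were 34.0, 32.8, 22.4, 28.9, 21.0, 48.4 and 26.0. The maximum was thus in the sixth region, from 39984258 to 39985319, and the minimum in the one before it, from 39983516 to 39983679. This stretch included the widest region of the whole list, 1126 bp, and another of 1061 bp. The eighth region stood apart after a gap of 10208 bp, with a height of 23.9 and a width of 373 bp. All 8 regions were therefore taller than 20, a height that 7.79% of the rest exceeded.

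The start of chromosome 9 held 5 regions, from 3005683 to 3031924, none touching another. Their heights were 33.2, 17.0, 56.0, 30.8 and 53.2, and their widths 212, 216, 60, 215 and 192 bp. These regions combined great height with small width. The tallest of them, from 3019143 to 3019203, was only 60 bp wide. The regions beginning at 3005683 and 3029657 had highest positions 23.9 kb apart, and those beginning at 3007483 and 3031732 had them 24.4 kb apart, a spacing that was similar but not equal. The lowest of the 5, from 3007483 to 3007699, was still above the upper quartile of the rest.

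The start of chromosome 4 held 8 regions from 3008056 to 3018478. The first 6 were ordinary in height, with values of 7.57, 10.6, 5.94, 10.0, 9.67 and 10.8. The last 2 were tall, 47.4 from 3016984 to 3017318 and 35.6 from 3018050 to 3018478. Low and tall regions thus stood side by side within 10.4 kb. The lowest of the 8 was the region from 3009075 to 3009342.

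The start of chromosome 18 held 7 regions within 6.43 kb. Their heights were 19.1, 10.7, 16.4, 14.9, 19.8, 9.66 and 16.0, and 5 of them touched another region. On chromosome 17, outside the ribosomal locus, 4 regions began before 3.1 Mb in 2 touching pairs. The pair from 3009723 to 3010447 had heights of 9.31 and 11.8, and the pair from 3081402 to 3081863 had 11.9 and 9.93. The chromosome Y region spanned 2689159 to 2689398, was 6 high and lay alone. Over the 24 autosomal regions before 3.1 Mb the median height was 13.4. Of these, 6 (25.0%) were taller than 30, all in the 2 loci at the starts of chromosomes 4 and 9. No interval is given for this share, because regions of the same locus are not independent. Crowded regions elsewhere had a median of 10.3, with 8 of 242 (3.31%) taller than 30. The other chromosomes of the list had no region before 3.1 Mb.

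Chromosome 1 held 4 of the large loci, all between 85076225 and 90200823 and none of them with a region above 20. The locus with the most regions of the whole list, 38 from 90108164 to 90200823, covered 13.7% of its 92.7 kb. Its heights ran from 5 to 15.7 around a median of 9.73, and 13 of the 38 were under 9. The tallest, from 90109829 to 90110128, and the lowest, from 90139059 to 90139252, differed 3.14 times. The number of regions was thus high here, while their median height was close to the 9.97 of the rest of the list. None of the 38 exceeded 20, a height that 7.79% of the rest exceeded. The same held for every large locus outside chromosomes 4, 9 and 17. Whether the tall end of this locus differs from that of the rest was not tested. This locus also contained the narrowest region deposited, 20 bp wide, from 90117393 to 90117413.

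The nearby loci of chromosome 1 were smaller. The one from 85076225 to 85089478 held 5 regions with heights of 9.05, 10.1, 12.1, 10.7 and 6. The one from 85252163 to 85289436 held 7 regions with heights of 6, 11.0, 9.66, 10.1, 10.3, 9.60 and 5.36, of which 3 touched each other in a row. In both, the outermost region at the far end was the lowest. The third, from 87488150 to 87493286, was compact: its regions covered 41.8% of 5.14 kb, and the first 4 formed an unbroken block of 1582 bp. Heights in that locus were 15.7, 18.8, 11.3, 15.3, 9.21 and 9, so that the block was taller than the 2 regions beyond it.

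The large loci of chromosomes 16 and 8 each held 13 regions. On chromosome 16, from 3235944 to 3272167, heights centred on 10.4 and peaked at 15.1 between 3246372 and 3247124. That region opened a block of 4 touching regions of 1646 bp, and the 4 regions beyond the block had heights of 8.71, 6.52, 7.09 and 5.56, all lower than any of the 4 in the block. On chromosome 8, from 19922538 to 19946759, the median was 11.0. Its maximum of 17.0 lay in the region from 19937416 to 19937853 and was nearly matched by a height of 16.9 in the region from 19927199 to 19927913. The lowest, 5.13, was the region from 19929620 to 19929843, and it lay between the 2 tall ones.

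**Figure D2:**
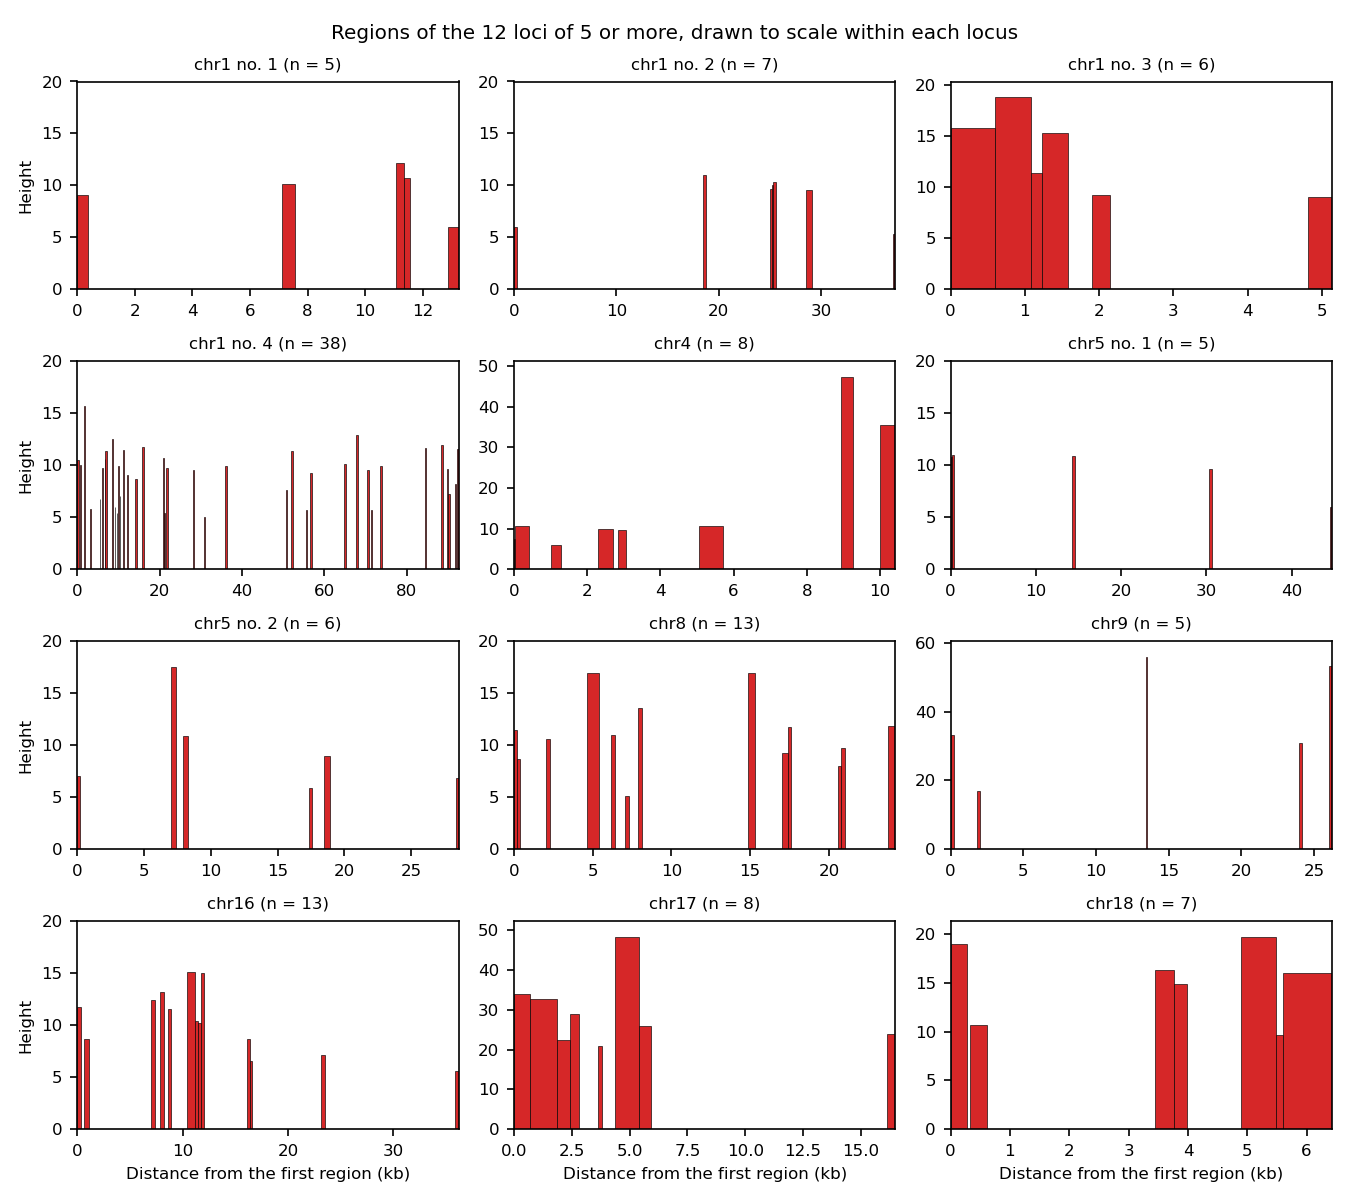
Regions of the 12 large loci as bars drawn to scale, from start to end of each region against its height as deposited, with distance in kb from the first region of the locus (numbers after a chromosome follow its loci in order of position, and the height axes differ between panels). The 38 regions of chromosome 1 no. 4 are spread over 92.7 kb, the first 7 of chromosome 17 cover 76.5% of their stretch, and only the loci of chromosomes 4, 9 and 17 reach above 20.

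On chromosome 5, several steps from one region to the next were of similar length. From 14933628 to 14978355 it held a touching pair with heights of 10.8 and 11.0, then single regions of 10.9, 9.70 and 6. From the second region of the pair onward, the highest positions were 14.2, 16.0 and 14.1 kb apart. The next locus, from 15005889 to 15020714, began 27.8 kb further on by highest position and held a single region (9.92) and, with its highest position 14.4 kb further on, a touching pair (10.1 and 10.6). A gap of exactly 13849 bp occurred in the first of these loci on 2 occasions. Among the 150 gaps above 0 within all loci, 5 lengths occurred more than once, and this was the only length that recurred inside a locus. The other 4 lengths joined different chromosomes, so an equal length also arose between unrelated loci.

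The second large locus of chromosome 5, from 15179295 to 15207858, held 6 regions with heights of 7.07, 17.5, 10.8, 5.85, 9 and 6.81. The tallest was the region from 15186293 to 15186686 and the lowest that from 15196680 to 15196893. The regions beginning at 15196680 and 15207634 resembled each other in shape. They were 213 and 224 bp wide, each had its highest position 4 bp before its end, and these positions were 11.0 kb apart. Other steps in this locus were uneven, from 0.751 to 9.83 kb. The regions beginning at 15187206 and 15197801, 346 and 419 bp wide, had their highest positions 10.7 kb apart.

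Width varied more among the crowded regions than in the rest. The median width was 332 bp against 347 bp, but the SD over regions was 146 bp among members and 66.2 bp in the rest. Touching regions, whose ends are shared borders, are members by the rule and absent from the rest. The SD in members that touched no other was 118 bp. Regions under 200 bp made up 27 of the members (10.1%, exact 95% interval 6.77 to 14.4%) and 11 of the rest (1.11%, interval 0.556 to 1.98%). Among members that touched no other they made up 11 of 192 (5.73%, interval 2.89 to 10.0%). Regions over 500 bp made up 22 of the members (8.24%) and 29 of the rest (2.93%). The narrow regions were mostly in large loci (19 of 121, 15.7%) or touching another in small ones (6 of 33, 18.2%). Separate regions of large loci had 9 of 79 (11.4%), and separate regions of small loci had 2 of 113 (1.77%, interval 0.215 to 6.25%). Regions over 500 bp made up 16 of 121 in large loci (13.2%), 6 of 113 separate ones in small loci (5.31%) and 0 of 33 touching ones there, which allows up to 10.6% by the exact interval. All these intervals treat regions of the same locus as independent, so they can be too narrow.

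A focal binding site usually gives a peak with its maximum near the middle. In the rest of the list the highest position lay at a median of 4.62% of the width from the middle, where 50% would be the very edge. Crowded regions that touched no other were split by locus size. In loci of 5 or more the median was 10.8% (79 regions), and in smaller loci it was 4.26% (113 regions, with the Y region), below that of the rest. Regions that touched another were the most lopsided, at 19.0% in large loci (42 regions) and 28.0% in small ones (33 regions). The highest position fell in the outer 10% of the width at either end in 29 members (10.9%, exact 95% interval 7.40 to 15.2%) and in 7 of the rest (0.708%, interval 0.285 to 1.45%). The rule makes every touching region a member, so the rest holds none. Among members that touched no other, 15 of 192 had it there (7.81%, interval 4.44 to 12.6%). Separate regions of small loci, whose median was near that of the rest, still had 6 of 113 there (5.31%, interval 1.97 to 11.2%). These 6 were all 3 regions of the locus of chromosome 3 from 8245123 to 8246325 and single regions beginning at 3371951 on chromosome 13, 88830659 on chromosome 11 and 166437455 on X. The intervals treat regions of the same locus as independent, so they can be too narrow.

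**Figure D3:**
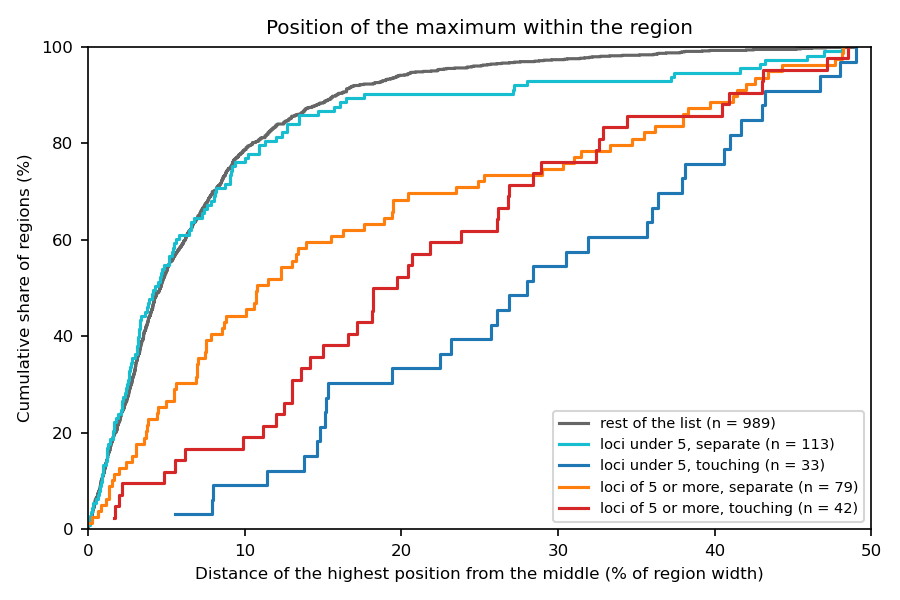
Cumulative share of regions (percent) against the distance of the highest position from the middle, in percent of the region's width, for the rest of the list and for crowded regions by locus size and contact. The curve of separate regions in small loci starts like that of the rest (medians 4.26% and 4.62%) but has more regions far from the middle, and the other 3 curves are shifted to the right, with medians of 10.8% to 28.0%.

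Contact between regions accounted for the smallest gaps. Among the 192 neighbouring pairs within loci, 42 had a gap of 0, the next region beginning where the last one ended, and no regions overlapped. These contacts involved 75 regions (28.1% of the members) in 33 blocks: 27 of 2 regions, 3 of 3 and 3 of 4. Contact follows in part from the rule, because a touching region is always a member. The blocks had a median width of 492 bp and reached 2817 bp at the ribosomal locus of chromosome 17. Of the 33 blocks, 17 lay in large loci.

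In touching pairs, the 2 maxima were often close together across the shared border. Their distance had a median of 153 bp and was 200 bp or less in 26 of 42 pairs (61.9%). In 21 of the 42 (50.0%), the left region peaked in its right side and the right region in its left side. The opposite arrangement, with both maxima turned away from the border, occurred in 6 (14.3%). Among separate pairs with gaps of at most 1 kb, maxima faced each other in 13 of 45 (28.9%) and turned away in 5 (11.1%). With gaps above 1 kb and up to 5 kb, they faced in 13 of 54 (24.1%) and turned away in 16 (29.6%). With gaps above 5 kb, they faced in 6 of 51 (11.8%) and turned away in 17 (33.3%). More facing than turned maxima were thus also seen in close pairs without contact. The closest maxima were on chromosome 1, 43 bp apart, in the regions from 12634683 to 12634885 (height 11.3) and from 12634885 to 12635100 (height 11.7). On chromosome 11, the regions from 75196888 to 75197116 and from 75197116 to 75197380 had maxima 48 bp apart and heights of 9.15 and 8.60. Over all touching pairs the median ratio of the taller to the lower height was 1.20, with a maximum of 2.72 and 2 pairs above 2.

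In small loci without contact, most maxima lay near the middle of their region. There were 36 loci of 2 separate regions, and in 28 of them both maxima lay within 10% of the width from the middle. In the rest of the list the upper quartile of this distance was 9.08%, so most regions there also lay within 10%. The tallest crowded region of all belonged to a separate pair on chromosome 15 that was not among these 28, with a gap of 167 bp. The taller, 87.2 high, spanned 74916512 to 74917578, and the lower, 54.5 high, spanned 74915851 to 74916345. The taller departed from the usual shape, with a width of 1066 bp and its maximum 16.1% of the width from the middle, against 8.1% in the lower. A further 2 pairs had both heights above 20. That of chromosome 16 had heights of 36.3 (14350829 to 14351223) and 27.3 (14352703 to 14353079). That of chromosome 1 had heights of 25.3 (45917159 to 45917579) and 22.5 (45930115 to 45930481).

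Over all 36 separate pairs, the taller region exceeded the lower by a median of 1.40 times, against 1.16 times in the 9 loci of 2 touching regions. One region was under 9 and the other was not in 9 of the 36 separate pairs and in 3 of the 9 touching ones. The widest difference was on chromosome 19, where a region of 36.1 from 6546108 to 6546462 stood beside one of 5.67 from 6549010 to 6549253, a ratio of 6.36. In 6 separate pairs both regions were under 9. Among loci of 3, the tallest region spanned 3372387 to 3372732 of chromosome 13 and was 35.9 high, between neighbours of 14.0 and 10.2.

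**Figure D4:**
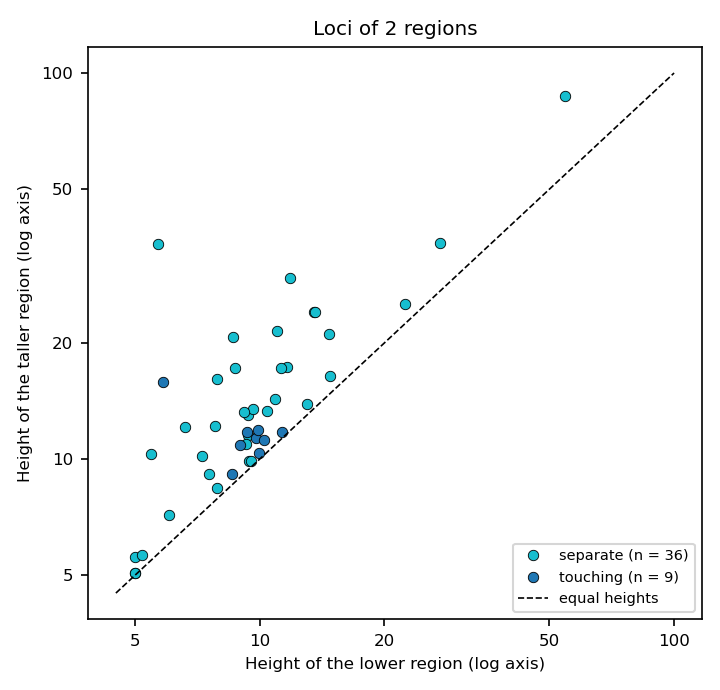
Height of the taller against the lower region in each of the 45 loci of 2 regions (both axes log, heights as deposited), with a dashed line at equal heights. Touching pairs lie near the line apart from one on chromosome 8 (15.9 and 5.84), and the pair of chromosome 15 (87.2 and 54.5) lies at the top.

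The limits of the rule did not fall at a break in the data. The widest gaps inside the limit were 19986 bp on chromosome 18 (heights 9.92 and 9.45) and 19219 bp on chromosome 1 (20.8 and 8.61). The nearest gaps beyond it were 20355 bp on chromosome 8 (15.2 and 5) and 21080 bp on chromosome 1 (17.8 and 20.3). The last start inside the position limit was 3081780 on chromosome 17, with a height of 9.93, and the first beyond it was 3116170 on chromosome 16, with a height of 9. Heights of regions just inside and just outside the limits overlapped.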

How the data were processed

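Per the file headers, the authors deposited 1 list for the whole series, which gives each region's chromosome, its start and end, its highest position and the height there. This height is a signal that is never negative, and its deposited normalization is not given in the sources used here. Nor are the aligner, the treatment of reads with several matches, the peak caller, its thresholds and the use of the control. The submitters' processing notes name mm9 as the build. All columns describe the series as a whole, and depth per library is unknown, so intervals cover counting error of regions only.

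Regions were sorted by chromosome and start, and members, loci, widths (end minus start), gaps and offsets of the highest position were computed. A region touches another at a gap of 0. Intervals of shares are exact Clopper-Pearson 95% intervals. They treat each region as independent, so they can be too narrow where regions share a locus. The member search was tested on simulated data. Regions named are, for each large locus, its span and its tallest and lowest region, members among the 10 tallest of the list, all members before 3.1 Mb and the 3 tallest elsewhere. Other named regions were chosen after their values were seen. The members and lists were chosen with earlier results of these data known. Sequence, motifs and genes were not analysed here, because no mm9 genome or annotation was used. Python 3.11.15, numpy 2.4.6, pandas 2.3.3, scipy 1.17.1 and matplotlib 3.10.9 were used.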

Additional observations from a re-analysis of the deposited data

How the results depend on the processing

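The number of crowded regions, 267, was 217 to 349 with gaps of at most 10 or 50 kb, with the limit on gaps alone or with touching regions joined. It was 122 when only regions at or above the median height of the list were kept. That setting shortens the list before gaps are measured, so the count cannot rise. The crowded share of the shortened list was not computed, so 122 is not comparable with 267. The 75 loci became 72 when members were joined within 100 kb and 180 when joined within 1 kb. The median height of 10.4 stayed between 10.3 and 10.7 over 6 other choices of members, and the mean was 12.9. The median width of 332 bp rose to 357 bp with touching regions joined. The offset of the highest position in separate members, 6.68%, was 10.1% with touching members included and 4.26% without the loci of 5 or more. The share touching, 28.1%, was 22.6% without those loci. The settings that left out the loci of 5 or more were chosen after seeing the data. No paired analysis was possible because there is 1 library per group and no value per library. The alternatives on the antioxidant response element and on masked repeats were not run, since no mm9 genome was used. Depth is unknown, so it cannot be read from the list how many reads stand behind a height.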

Other observations

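Chromosomes X and 15 each held a low pair with the same deposited heights. On chromosome X, the regions from 166433752 to 166434061 and from 166437455 to 166437680 had heights of 5 and 5.078, with a gap of 3394 bp. On chromosome 15, the regions from 89657908 to 89658353 and from 89661361 to 89661767 also had heights of 5 and 5.078, with a gap of 3008 bp. The height 5 was the lowest of the list and occurred in 24 regions, and 5.078 occurred in 3. Widths within the pairs differed between the chromosomes.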
